A study of Mus musculus with 19 samples.

Results

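Of 22521 genes listed with an RPKM value (reads scaled to gene length and library size), 117 belonged to 8 families of developmental regulators and were taken by their symbols: 40 Hox, 10 Pax, 8 Lhx, 14 Nkx, 6 Irx, 13 Tbx and 19 Wnt genes, and 7 genes of the Six2 family. They were followed in 17 mouse RNA-seq libraries of the strain cross B6/129 x PWK, made from morulae and, at embryonic day 6.5, from the trophoblast tissue called extra-embryonic ectoderm (ExE), which borders the epiblast. Mothers of control embryos were Eed-fl/fl. Mothers of maternal knockout (matKO) embryos were Gdf9-Cre, Eed-fl/fl, and Cre driven by Gdf9 acts in growing oocytes. All fathers were WT, so embryos of both genotypes received an intact paternal Eed gene. Each genotype had 2 morula libraries; ExE libraries numbered 4 from controls (2 of each sex) and 9 from matKO embryos (4 female, 5 male). Since the labels tie no library to its own embryo or litter, the p-values describe the spread between libraries, which may be technical.

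Eed is a core subunit of Polycomb repressive complex PRC2, which places the repressive mark H3K27me3 on histone H3. In mouse embryonic stem cells, H3K27me3 covers the CpG-rich starts of many silent developmental genes, and Hox clusters, Pax, Lhx, Nkx, Irx and Tbx genes are textbook examples. The Hox, Pax, Lhx, Nkx, Irx and sine oculis-related (Six2 and relatives) genes encode homeodomain or paired-domain transcription factors that pattern the body axis, nervous system and organs, Tbx genes encode T-box factors, and Wnt genes encode secreted ligands that signal through Frizzled receptors. The question put to these families was whether members that are silent in control embryos gain transcripts when the egg lacked Eed.

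The bases before the transcription start of the members that the results turn on are given here to show what such starts look like. Of the 117 members, 80 (68.4%) had an entry in the RefSeq promoter table (GRCm38.p6), so no comparison over the families was made. Each line holds the 250 bases upstream of the start, written 5′ to 3′ on the strand of the gene, with every CG dinucleotide in capitals. Wnt6 (chr1:74771642-74771891, plus strand) and Irx2 (chr13:72628570-72628819, plus strand) were among the most abundant members in ExE, and Six2 (chr17:85688255-85688504, minus strand) had higher values in most matKO ExE libraries. Tbx20 (chr9:24774304-24774553, minus strand) was measured at both stages, Nkx2-9 (chr12:56613285-56613534, minus strand) in morulae, and Hoxd13 (chr2:74667975-74668224, plus strand) is a Hox gene under 0.5 RPKM throughout.
Wnt6: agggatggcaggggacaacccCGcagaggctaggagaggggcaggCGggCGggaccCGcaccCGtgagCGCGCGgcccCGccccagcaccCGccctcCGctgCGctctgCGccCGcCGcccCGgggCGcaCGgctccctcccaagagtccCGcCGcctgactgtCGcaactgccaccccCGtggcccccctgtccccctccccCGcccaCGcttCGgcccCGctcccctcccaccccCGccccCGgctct
Irx2: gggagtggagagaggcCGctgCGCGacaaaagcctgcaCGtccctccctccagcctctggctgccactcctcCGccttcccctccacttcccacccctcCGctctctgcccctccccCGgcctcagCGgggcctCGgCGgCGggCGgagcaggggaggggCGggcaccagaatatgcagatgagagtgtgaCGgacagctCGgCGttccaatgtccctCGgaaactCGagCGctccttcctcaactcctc
Six2: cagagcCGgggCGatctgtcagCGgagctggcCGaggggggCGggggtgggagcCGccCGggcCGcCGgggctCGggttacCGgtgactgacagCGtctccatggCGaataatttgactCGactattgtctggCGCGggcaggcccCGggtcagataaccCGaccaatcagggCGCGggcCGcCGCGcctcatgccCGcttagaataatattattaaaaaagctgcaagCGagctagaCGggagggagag
Tbx20: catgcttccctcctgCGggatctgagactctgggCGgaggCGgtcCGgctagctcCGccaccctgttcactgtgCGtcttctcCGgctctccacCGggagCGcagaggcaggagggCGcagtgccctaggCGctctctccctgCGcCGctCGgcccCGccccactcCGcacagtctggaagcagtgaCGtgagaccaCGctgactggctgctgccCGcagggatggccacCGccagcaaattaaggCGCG
Nkx2-9: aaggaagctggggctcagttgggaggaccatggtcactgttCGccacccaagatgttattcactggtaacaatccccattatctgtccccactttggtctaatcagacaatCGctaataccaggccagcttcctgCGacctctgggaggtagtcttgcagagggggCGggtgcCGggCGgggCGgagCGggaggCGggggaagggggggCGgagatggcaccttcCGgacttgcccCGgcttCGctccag
Hoxd13: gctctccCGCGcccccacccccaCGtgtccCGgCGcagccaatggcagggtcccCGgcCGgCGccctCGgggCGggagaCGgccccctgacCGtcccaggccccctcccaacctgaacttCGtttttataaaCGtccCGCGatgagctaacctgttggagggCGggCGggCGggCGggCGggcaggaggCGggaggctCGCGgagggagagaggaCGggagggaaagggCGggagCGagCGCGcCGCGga
The median promoter in the table had 6.00 CG in these 250 bases, counted on the gene's strand. Hoxd13 held 31, a number reached by 5.19% of all 32851 promoters, and Wnt6 held 28, reached by 7.61%. Six2 held 26 (9.59%), Tbx20 22 (14.8%), Irx2 19 (19.7%) and Nkx2-9 13 (31.5%). Silent and expressed members thus both appeared among the CG-dense starts shown.

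Read depth behind the total RPKM is unknown. Allelic tables, which count reads over sequence variants, held 3327373 to 5109159 reads per morula library and 4696355 to 9828943 per ExE library. Eed itself was lower from the maternal allele in every matKO library: the maternal share of Eed allelic RPKM was 37.0% to 44.3% in control and 15.3% to 19.9% in matKO morulae, and 43.9% to 47.7% in control and 11.1% to 17.1% in matKO ExE. All 12 markers of extra-embryonic ectoderm had a mean above 1 RPKM in control and matKO ExE, with summed levels of 550 to 681 RPKM in controls and 494 to 800 RPKM in matKO. Of 12 decidual markers, 1 had a mean above 1 RPKM in control and in matKO ExE (2 in matKO females), with summed levels of 2.52 to 3.31 RPKM in controls and 2.13 to 4.11 RPKM in matKO. Prl8a2, Dcn, Hand2 and Dio3 were listed at 0 in all 4 controls. Some markers of neighbouring embryonic tissues were present. Of 14 visceral endoderm markers, 3 had a mean above 1 RPKM in control ExE and 6 in matKO (3 without males 4 and 5). Their sums, carried by few genes, were 348 to 395 RPKM in controls and 146 to 848 RPKM in matKO. Of 10 epiblast markers, 6 and 7 had such a mean, and the sums were 518 to 670 RPKM and 366 to 878 RPKM. Of 10 primitive streak and mesoderm markers, which include Eomes and Hand1, 7 and 6 had such a mean. Their sums were 109 to 162 RPKM and 146 to 366 RPKM. The part of such tissue in the members' levels was not tested. ExE matKO males 4 and 5 stood apart from the other 11 ExE libraries: Esrrb, a stem-cell factor of the trophoblast, was at 0.310 and 3.77 RPKM (26.0 to 55.8 RPKM in the others), Sox2 at 0.0717 and 1.5 RPKM (9.17 to 23.1), Bmp4 at 2.95 and 14.7 RPKM (85.5 to 196), and Hand1, a factor of differentiating trophoblast, at 312 and 295 RPKM (27.9 to 103). Not all markers of extra-embryonic ectoderm were lower in them: Elf5 was at 185 and 204 RPKM (178 to 277 RPKM in the others) and Tfap2c at 198 and 129 RPKM (38.9 to 109). In morulae, Gapdh was listed at 0 to 0.106 RPKM, so an exact 0 in these tables can be a failed estimate.

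The families were mostly silent at both stages, and the number of members expressed was about the same in control and matKO. In morulae, 7 and 8 members were above 1 RPKM in the control libraries and 8 and 9 in the matKO libraries. Above 0.5 RPKM there were 13 and 18 members in controls and 14 and 15 in matKO. In ExE, controls had 9 to 10 members above 1 RPKM and matKO libraries had 9 to 12. Above 0.5 RPKM the ExE numbers were 12 to 15 in controls and 10 to 16 in matKO. The ranges of the genotypes overlapped in each of these counts but that above 1 RPKM in morulae, where they touched at 8.

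As a share of the 117 members, 6.41% ± 0.608 (SD, n = 2) of control and 7.27% ± 0.601 (SD, n = 2) of matKO morulae members were above 1 RPKM, against 45.4% and 45.1% of all genes. In ExE the shares were 8.34% ± 0.430 (SD, n = 4) and 8.74% ± 0.943 (SD, n = 9), against 44.1% and 43.4% of all genes. Without matKO males 4 and 5 the ExE matKO share was 8.80% ± 0.963 (SD, n = 7). The mean of log2(RPKM + 1) over the members was 0.330 ± 0.0191 in control and 0.314 ± 0.0276 in matKO morulae (SD, n = 2 each), and 0.323 ± 0.0178 (n = 4) and 0.335 ± 0.0225 (n = 9) in ExE. Over all genes the same mean was 1.87 in both morula groups, 1.90 in control ExE and 1.88 in matKO ExE. The genotype differences in the members' mean level were smaller than 1 SD between libraries.

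**Figure D1:**
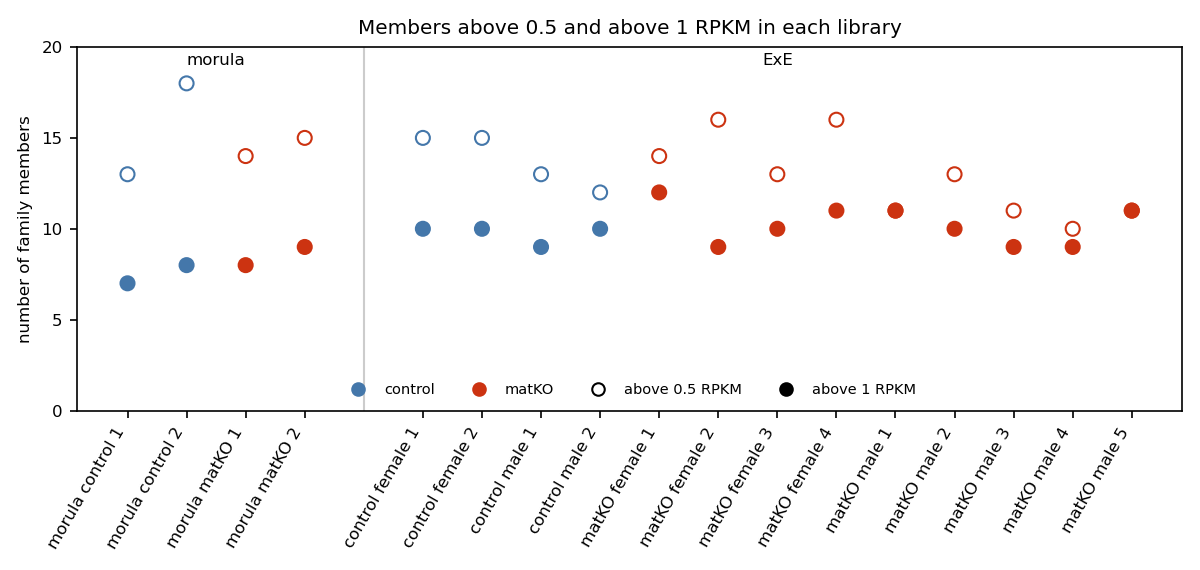
Number of the 117 members above 0.5 RPKM (open) and above 1 RPKM (filled) in each of the 17 libraries, controls in blue and matKO in red. Above 1 RPKM the morula libraries held 7 to 9 members and the ExE libraries 9 to 12; in matKO males 1 and 5 both counts were 11 and the filled point covers the open one.

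In all, 82 members stayed under 0.5 RPKM in every one of the 17 libraries, and 13 were listed at 0 in all of them: Hoxa6, Hoxa9, Hoxb5, Hoxc11, Hoxd12, Irx6, Nkx1-2, Nkx3-2, Pax2, Pax4, Pax6os1, Six6 and Tbx5. The 4 antisense or opposite-strand members (Hoxa11as, Nkx2-2as, Pax6os1 and Six3os1) are uncertain, because it is not stated whether counting used strand. The control mean was above 1 RPKM for 8 members in morulae and for 10 in ExE. Only Tbx20, Wnt6 and Wnt7b were in both sets, 37.5% of the morula set and 30.0% of the ExE set. The stages come from separate tables, so levels at the 2 stages are placed side by side without a test.

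Among members silent in controls, 1 reached expression in matKO morulae. A member was called silent when it was under 0.5 RPKM in every control library of the stage, which held for 96 of 117 members in morulae, 34 of them listed at 0 in both controls. In the matKO mean, 1 of these 96 (1.04%) reached 1 RPKM, against 19 of 10086 silent genes overall (0.188%). It was Lhx2, a LIM-homeodomain factor of forebrain, eye and hair follicle. Lhx2 was at 0.364 and 0.288 RPKM in the control libraries and at 0.875 and 1.46 RPKM in the matKO libraries. Both matKO values lay above both control values, and the second was the only value of any silent member at or above 1 RPKM. Fitted without a filter on low values, Lhx2 was 0.70 ± 0.22 (SE) higher on the log2(RPKM + 1) scale with an adjusted p of 1.0 by limma (unadjusted 0.0257, 0 of 18232 genes called). Without matKO replicate 2 no silent member reached 1 RPKM, and without control replicate 2 the number was 2. The authors' deposited table of genes higher in matKO morulae lists Lhx2 with a log2 ratio of 1.57, which need not be on the log2(RPKM + 1) scale.

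At 0.5 RPKM the count in the matKO mean was also 1, against 165 of 10086 genes (1.64%). Hoxa10, named here after its values were seen, was the only other silent member at 0.5 RPKM or above in a matKO library (0.508 RPKM in replicate 1), which made 2 of 96 (2.08%) in any library against 4.00% of all silent genes. At 1 RPKM in any library the shares were 1.04% and 0.466%. Hoxb13, a posterior Hox gene, lay just outside the silent set: it was at 0.478 and 0.590 RPKM in control morulae and at 1.27 and 0.992 RPKM in matKO. The selection was also run the other way. Of 100 members under 0.5 RPKM in both matKO morula libraries, 0 reached 1 RPKM in the control mean (34 of 10375 genes, 0.328%) or in either control (1.27% of genes). At 0.5 RPKM 3 did so in the mean (3.0%, against 2.90% of genes), Hoxb9 and Tbx15 among them, and 6 in either control (6.00%, against 6.67%). With fewer transcripts, fewer cells that express a gene and less RNA per cell cannot be told apart in these bulk libraries.

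In ExE, 0 of 100 silent members reached 1 RPKM in any of the 9 matKO libraries. Among all genes silent in ExE controls, 9 of 11007 (0.0818%) reached 1 RPKM in the matKO mean and 108 (0.981%) in at least 1 matKO library. At 0.5 RPKM in the mean there were 0 members and 0.536% of genes. Of the 100 silent members 39 (39.0%) were listed at 0 in every control. The highest values were 0.673 RPKM for Wnt5b in matKO female 2, 0.660 RPKM for Nkx6-2 in matKO female 4, and 0.618 and 0.517 RPKM for Nkx6-3 in matKO females 2 and 4 (Wnt5b and Nkx6-3 named after their values were seen). These 3 members were the only silent ones at 0.5 RPKM or above in any matKO library, 3.0% of the set, against 550 of 11007 genes (5.00%). None of them did so in a matKO male, males 4 and 5 included. Without control female 1 the silent set would include Irx1, whose matKO mean was above 1 RPKM through matKO males 4 and 5. In the reverse direction, 98 members were silent in every matKO library: 0 reached 0.5 RPKM in the control mean (0.338% of genes) or 1 RPKM in the mean (0.0470%) or in any control (0.132%), and 1 reached 0.5 RPKM in any control (1.02%, against 1.70% of genes).

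**Figure D2:**
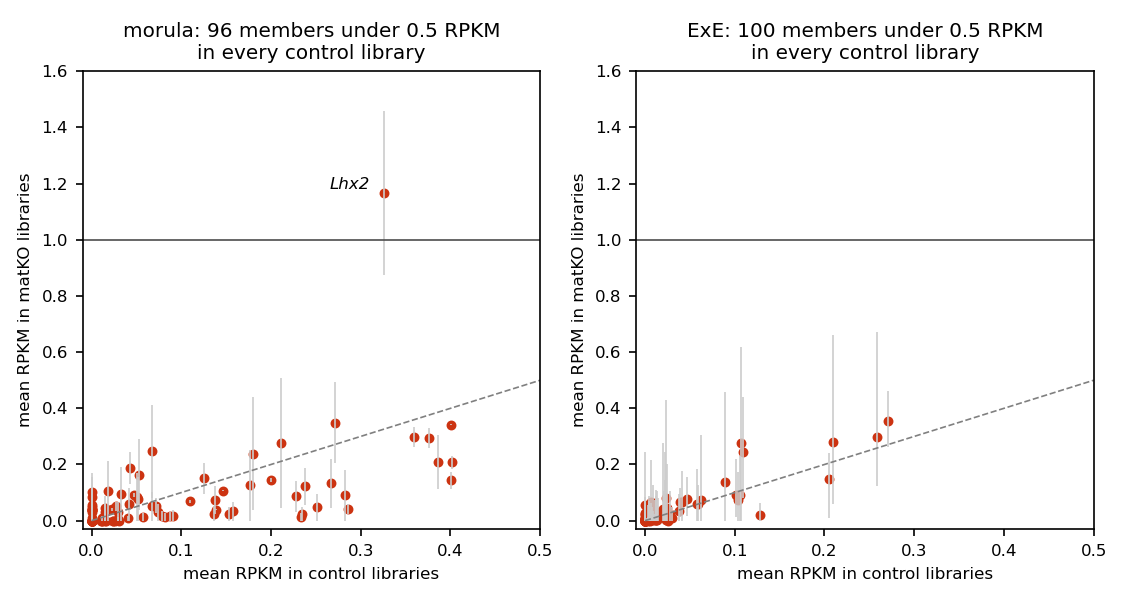
Mean RPKM in matKO against mean RPKM in control for the 96 morula and 100 ExE members under 0.5 RPKM in every control library. Grey bars span the matKO libraries, the dashed line marks equal levels and the solid line 1 RPKM; Lhx2 in morulae is the only mean above the solid line.

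Hox genes were low at both stages. Of 40, none had a control mean above 1 RPKM in morulae, where the highest value in a control was 1.27 RPKM (Hoxc13), and 10 were listed at 0 in both controls and 12 in both matKO libraries. Control morulae reached 0.851 RPKM for Hoxb9, 1.27 RPKM for Hoxc13 and 0.929 RPKM for Hoxd10. The same genes in matKO were at 0.332 and 0.147 RPKM (Hoxb9), 0.334 and 0.847 RPKM (Hoxc13) and 0.626 and 0.760 RPKM (Hoxd10). None of these matKO pairs lay wholly above its control pair. These genes were named for their control level, which works against a higher matKO pair, so no conclusion is drawn. Hoxb13, also named for its control level, had both matKO values (1.27 and 0.992 RPKM) above both control values (0.478 and 0.590 RPKM).

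In ExE, Hoxb13 ranged from 0.242 to 0.883 RPKM in controls and from 0.0484 to 1.0 RPKM in matKO. Of the 40 Hox genes 38 were under 0.5 RPKM in every ExE library, and 21 were listed at 0 in all 4 controls and 13 in all 9 matKO libraries.

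In the test across all morula genes, 9 members had a mean of at least 1 RPKM and could be tested, and none passed. limma with Benjamini-Hochberg adjustment called 0 of 10329 genes (0%), and 92 genes (0.891%), none of them a member, had an unadjusted p under 0.05. Of the 9 members 5 had a positive difference, with a median of 0.03 on the log2(RPKM + 1) scale against 0.02 for all genes. Members that passed the filter did so on their mean over both genotypes, so they are the expressed ones, not all 117.

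Among Nkx genes, Nkx2-9 and Nkx6-2, both homeodomain factors of the ventral nervous system, were expressed in morulae. Nkx2-9 was at 3.24 and 9.37 RPKM in controls and at 11.9 and 14.9 RPKM in matKO. Both matKO values were above both controls, and the difference was 1.11 ± 0.49 (SE) log2 units (limma, adjusted p = 1.0, unadjusted 0.0670). It was 0.46 without control replicate 1 and 1.75 without control replicate 2. With the replicate number as a block the same difference had an adjusted p of 0.00677 in limma, 1 of 164 genes then called of 10329 (1.59%). That fit leaves almost no residual information per gene, so its p rests mostly on the spread that limma shares across genes. The labels do not say that equal numbers mark a shared litter or day. The authors' deposited table lists Nkx2-9 as higher in matKO with a log2 ratio of 1.07. Nkx6-2 was at 4.75 and 11.8 RPKM in controls and at 10.1 and 20 RPKM in matKO, with overlapping groups and a difference of 0.83 ± 0.53 (SE) log2 units (limma, adjusted p = 1.0). It was 0.25 without control replicate 1, 1.41 without control replicate 2, 1.29 without matKO replicate 1 and 0.37 without matKO replicate 2. In matKO replicate 2 Nkx6-2 was the highest member. The other 12 Nkx genes were under 0.5 RPKM in every morula library. In ExE all 14 were under 0.5 RPKM in every control.

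Pax6, a paired-domain factor of eye and brain, was the only Pax gene above 0.5 RPKM in a group mean. It was at 10.6 and 0.794 RPKM in control morulae and at 2.06 and 1.16 RPKM in matKO. The lower control library lay below both matKO libraries, so the sign of the difference rests on control replicate 1: it was -0.83 ± 0.87 (SE) log2 units with all libraries (limma, adjusted p = 1.0) and 0.52 without that replicate. The table gives Pax6 only 153 listed bases. The authors' deposited table lists it as lower in matKO with a log2 ratio of -1.76. In ExE no Pax gene exceeded 0.278 RPKM in any library.

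The T-box genes Tbx20 and Tbx3 were the most abundant members in both control morulae. Tbx20, known from heart development, was at 20.8 and 16.2 RPKM in controls and at 18 and 19.6 RPKM in matKO, a difference of 0.03 ± 0.31 (SE) log2 units. Tbx3, a T-box repressor linked to pluripotency in mouse stem cells, was at 16.7 and 22.4 RPKM in controls and at 16.1 and 19 RPKM in matKO, a difference of -0.14 ± 0.32 (SE) log2 units. The genotypes overlapped for both (limma, adjusted p = 1.0 for each). In ExE Tbx3 was under 0.5 RPKM in every library.

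**Figure D3:**
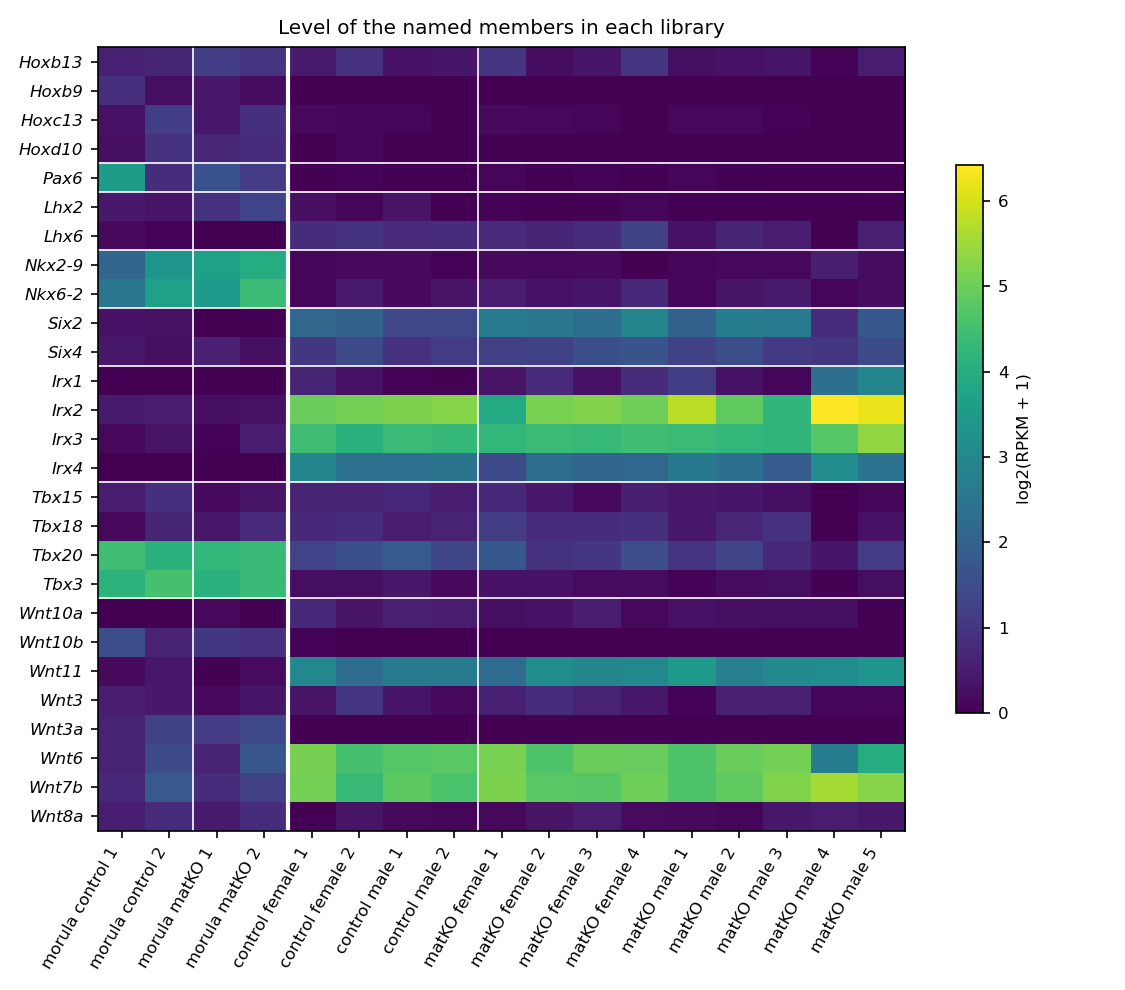
Level of the named members in each library as log2(RPKM + 1), ordered by family, with morulae left of the thick line. Tbx20, Tbx3, Nkx6-2 and Nkx2-9 stand out in morulae, and Irx2, Irx3, Wnt6 and Wnt7b in ExE; Irx1 is brightest in matKO males 4 and 5.

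In ExE, 11 members could be tested, and none passed in the sexes averaged, in females, in males or in the difference between the sexes. limma called 5 of 9915 genes (0.0504%) in the sexes averaged, 2 (0.0202%) in females, 4 (0.0403%) in males and 0 (0%) in the sex difference. At an unadjusted p under 0.05 these comparisons held 1592 (16.1%), 452 (4.56%), 1456 (14.7%) and 170 (1.71%) genes, and 0, 0, 1 and 0 members. Of the 11 members 7 had a positive difference in the sexes averaged, and their median was 0.16 on the log2(RPKM + 1) scale against 0.01 for all genes. That median rested on matKO males 4 and 5: it was 0.07 without male 4 and 0.01 without male 5 (5 of 10 tested members positive in each case), and 0.06 without both (6 of 10). Irx1 passed the filter only through its values in these males (4.08 and 6.51 RPKM), so its positive sign is no separate result. The authors' deposited table lists no member among 154 changed genes in females and 3 among 400 in males.

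Tbx20 was lower in several matKO ExE libraries. It was at 1.44 and 1.96 RPKM in control females, 2.54 and 1.6 RPKM in control males, 2.43, 0.910, 1.01 and 1.87 RPKM in matKO females, and 1.0, 1.5, 0.680, 0.311 and 1.16 RPKM in matKO males. All 5 matKO males lay below both control males, while the female groups overlapped. In males the difference was -0.67 ± 0.28 (SE) log2 units (limma, adjusted p = 0.30, unadjusted 0.0307), and without males 4 and 5 it was -0.56 ± 0.27 (adjusted p = 0.397). In females it was -0.12 ± 0.29 (adjusted p = 0.997), and the difference between the sexes was 0.56 ± 0.40 (adjusted p = 0.990). The authors' deposited table for males lists Tbx20 with a log2 ratio of -1.06.

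Six2, a homeodomain factor that keeps nephron progenitors undifferentiated, was the member whose ExE level moved most steadily with genotype once males 4 and 5 were left out. It was at 3.35 and 2.91 RPKM in control females and at 5.42, 4.84, 3.97 and 6.59 RPKM in matKO females. In control males it was at 1.57 and 1.63 RPKM, and in matKO males at 3.0, 5.44, 5.14, 0.763 and 2.41 RPKM. Within females the groups did not overlap, and in males only matKO male 4 lay below the controls. In all libraries the difference was 0.59 ± 0.28 (SE) log2 units in the sexes averaged (limma, adjusted p = 0.329). Without males 4 and 5 it was 0.81 ± 0.15 (adjusted p = 0.0421), and Six2 was then the only member among 69 called genes of 9904 (0.697%; 32 of them, 0.323%, higher in matKO). That alternative was chosen after the marker values of the 2 males were seen. The authors' deposited table for males lists Six2 with a log2 ratio of 1.02.

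Six4, a related factor of muscle and sensory organs, was at 0.893 to 1.74 RPKM in control ExE and at 1.03 to 2.1 RPKM in matKO (median 1.41), with overlapping groups and a difference of 0.21 ± 0.13 (SE) log2 units (limma, adjusted p = 0.454). Six3, Six3os1, Six5 and Six6 were among the genes under 0.5 RPKM in every ExE library. Lhx6, a LIM-homeodomain factor of forebrain interneurons, was at 0.735 to 0.927 RPKM in control ExE and at 0 to 1.35 RPKM in matKO (median 0.575). It was listed at 0 in matKO male 4.

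Iroquois genes, which pattern neural and heart tissue, held the highest single values of the families in ExE. Irx2 was at 30.2, 32.7, 34.5 and 37.0 RPKM in the controls, with little spread. In matKO females it was at 14.2, 33.8, 35.8 and 31.4 RPKM, and in matKO males at 53.3, 28.2, 17.8, 85.0 and 74.5 RPKM, so that matKO libraries lay on both sides of the controls. The difference in the sexes averaged was 0.05 ± 0.37 (SE) log2 units (limma, adjusted p = 0.960) and -0.22 ± 0.29 without males 4 and 5 (adjusted p = 0.711). Ascl2, a marker of the ectoplacental cone, was at 87.7 to 123 RPKM in controls, lowest in matKO female 1 and male 3 (9.06 and 24.8 RPKM) and highest in matKO males 4, 5 and 1 (362, 208 and 167 RPKM), the same libraries that were lowest and highest in Irx2. Its list of 10 markers, 4 of them with a mean above 1 RPKM, summed to 2933 to 3724 RPKM in controls and 529 to 7148 RPKM in matKO. Prl2c2 and Ctsq were listed at 0 in every ExE library. Phlda2 alone was at 2513 to 3132 RPKM in controls and 472 to 6029 RPKM in matKO, with 2881 RPKM in male 5. In the matKO libraries other than males 4 and 5, median Ascl2 was 78.6 RPKM (95.3 RPKM in controls). Median Phlda2 there was 1690 RPKM (3033 RPKM in controls) and median Hand1 60.9 RPKM (40.8 RPKM in controls). The part of these markers in the Irx2 spread was not tested.

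Irx1, a neighbour of Irx2 and Irx4 on chromosome 13, was at 0.0265 to 0.591 RPKM in controls. It was at 0.265, 0.730, 0.240 and 0.753 RPKM in matKO females, at 1.27, 0.245 and 0.0570 RPKM in matKO males 1 to 3, and at 4.08 and 6.51 RPKM in matKO males 4 and 5. Only the last 2 libraries stood well above the rest, and the level of Hand1 was highest in the same 2. In males the difference was 1.31 ± 0.61 (SE) log2 units (limma, adjusted p = 0.343), in females 0.07 ± 0.64 (adjusted p = 0.997), and without males 4 and 5 Irx1 did not reach the mean needed for the test. The authors' deposited table for males lists it with a log2 ratio of 4.20. That ratio need not match the log2(RPKM + 1) scale used here, which understates changes of low genes.

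Irx3 and Irx4 varied over a narrower range. Irx3 was at 16.3 to 20.7 RPKM in controls and 17.5 to 40.1 RPKM in matKO (median 19.8), with 40.1 RPKM in matKO male 5 and 25.4 RPKM in male 4 and no other matKO library above 21.1 RPKM. Irx4 was at 4.25 to 6.62 RPKM in controls and 1.68 to 7.63 RPKM in matKO (median 3.86). All 4 matKO females were below both control females in Irx4, at 1.68, 3.86, 3.27 and 3.52 RPKM against 6.62 and 4.25 RPKM, a difference of -0.67 ± 0.31 (SE) log2 units (limma, adjusted p = 0.997, unadjusted 0.0525). Irx5 and Irx6 were under 0.5 RPKM in all 17 libraries.

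**Figure D4:**
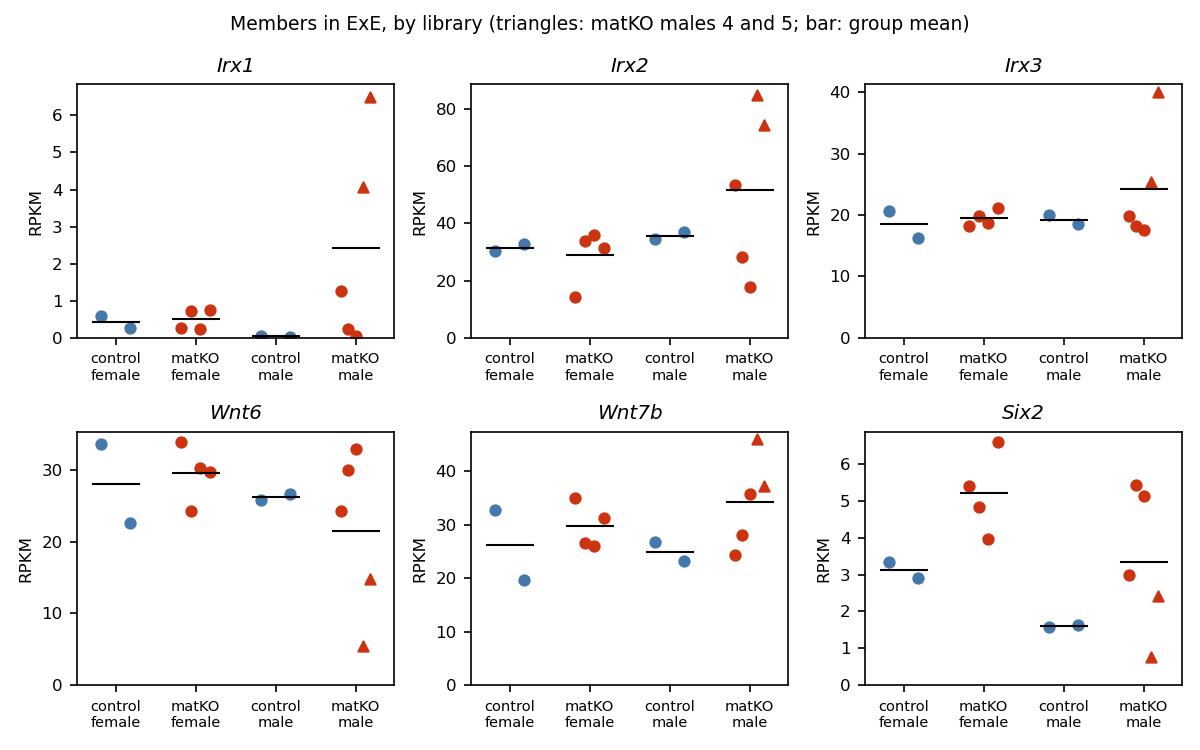
RPKM of 6 members in each ExE library by sex and genotype, with the group mean as a bar and matKO males 4 and 5 as triangles. The triangles lie highest in Irx1, Irx2 and Irx3 and lowest among matKO in Wnt6 and Six2.

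Of the 19 Wnt genes, 3 had a control mean above 1 RPKM in morulae (Wnt6, Wnt7b and Wnt10b) and 3 in ExE (Wnt6, Wnt7b and Wnt11). In morulae, Wnt7b was at 0.670 and 2.50 RPKM in controls and 0.758 and 1.32 RPKM in matKO. Wnt6 was at 0.529 and 1.81 RPKM in controls and 0.533 and 2.31 RPKM in matKO, and Wnt3a at 0.536 and 1.37 RPKM in controls and 1.17 and 1.65 RPKM in matKO. In each of these ligands replicate 2 was higher than replicate 1 in both genotypes, and the genotypes overlapped. Wnt10b was at 1.87 and 0.566 RPKM in controls and 1.06 and 0.881 RPKM in matKO. The fitted differences of these 4 ligands ran from -0.26 to 0.33 log2 units (limma, adjusted p = 1.0 for each).

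In ExE the ligands Wnt6 and Wnt7b reached the level of the Iroquois genes. Wnt6 was at 22.6 to 33.6 RPKM in controls (median 26.2) and at 24.2 to 33.9 RPKM in the matKO libraries other than males 4 and 5, which were at 5.48 and 14.8 RPKM. Wnt7b, a ligand needed for the fusion of chorion and allantois in mouse, was at 19.6 to 32.8 RPKM in controls (median 25) and 24.4 to 46.1 RPKM in matKO (median 31.3). Males 4 and 5, lowest in Wnt6, were highest in Wnt7b (46.1 and 37.3 RPKM). Wnt11, a ligand of the non-canonical branch, was at 3.93 to 6.93 RPKM in controls and 3.72 to 10.2 RPKM in matKO (median 7.34). The differences in the sexes averaged were -0.20 ± 0.35 (SE) for Wnt6, 0.31 ± 0.17 for Wnt7b and 0.34 ± 0.18 for Wnt11 (limma, adjusted p = 0.820, 0.380 and 0.382). Without males 4 and 5 they were 0.11 ± 0.12, 0.21 ± 0.15 and 0.31 ± 0.20 (adjusted p = 0.665, 0.464 and 0.412). Leaving out control female 1 or control female 2 gave 0.49 and 0.13 for Wnt7b and 0.51 and 0.16 for Wnt11. Wnt10a was at 0.267 to 0.682 RPKM in controls and 0 to 0.405 RPKM in matKO, and Wnt3 at 0.102 to 0.966 RPKM and 0.0451 to 0.793 RPKM. The other 14 Wnt genes were under 0.5 RPKM in every control ExE library.

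The receptors and secretion genes that Wnt ligands need gave no call either. Of 18 such genes on the list, 5 were tested in ExE and 0 passed in either direction. Over all genes, 5 of 9915 (0.0504%) passed in the sexes averaged, so 0 in a short list says little. In the sexes averaged 3 had an unadjusted p under 0.05 (limma), all lower in matKO, against 1592 of 9915 genes (16.1%) in either direction. Without matKO males 4 and 5 there were 2, again lower, against 1861 of 9904 genes. With all libraries the median of the 5 was -0.49 log2 units against 0.01 for all genes. The median was -0.16 in females and -0.79 in males, and without matKO males 4 and 5 it was -0.19 in the sexes averaged and -0.20 in males. Wls, which carries Wnt ligands to the cell surface, was at 42.9 and 31.5 RPKM in control females, 35.8 and 36.7 RPKM in control males, and 15 to 30.2 RPKM in the 9 matKO libraries (median 25.1). All 9 matKO libraries lay below all 4 controls, and the difference was -0.65 ± 0.17 (SE) log2 units in the sexes averaged (limma, adjusted p = 0.124, unadjusted 0.00238). Without males 4 and 5 it was -0.52 ± 0.13 (adjusted p = 0.0813). The receptors Fzd7 and Fzd1 were at 3.28 to 4.97 RPKM and 4.07 to 4.69 RPKM in controls, and matKO males 4 and 5 had the lowest values, 0.432 and 0.527 RPKM for Fzd7 and 0.219 and 0.540 RPKM for Fzd1. The other 7 matKO libraries were at 1.71 to 3.86 RPKM for Fzd7 and 3.04 to 5.13 RPKM for Fzd1. Without males 4 and 5 the difference went from -0.62 to -0.38 log2 units for Fzd7 and from -0.49 to -0.12 for Fzd1 (limma, adjusted p = 0.223 and 0.656 without them). Of 12 Wnt target genes, 6 were tested and 0 passed. Axin2 was at 1.59 to 2.35 RPKM in controls and 0.106 to 1.76 RPKM in matKO (median 1.36), a difference of -0.48 ± 0.21 (SE) log2 units in the sexes averaged (limma, adjusted p = 0.288). Without males 4 and 5 the matKO range was 1.03 to 1.76 RPKM (median 1.42) and the difference -0.29 ± 0.11 (adjusted p = 0.182). In morulae 4 receptor and secretion genes, 3 antagonists or agonists and 2 target genes were tested, and 0 passed, as did 0 of all 10329 genes.

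The writers, erasers and other textbook targets of H3K27me3 were read in the same fits. No gene passed in either direction among 9 tested PRC2 subunits and cofactors, 16 PRC1 subunits, 7 demethylase and Trithorax genes, 4 Hox cofactors and 13 other developmental regulators in morulae. In ExE none passed among 10, 18, 9, 6 and 12 genes of the same lists. Over all genes, 0 of 10329 passed in morulae and 5 of 9915 (0.0504%) in ExE with the sexes averaged. With so few calls, 0 in short lists says little about these lists. The medians of the other developmental regulators, such as Gata, Sox and Fox genes, were -0.09 log2 units in morulae and, in ExE, -0.17 in the sexes averaged, 0.14 in females and -0.23 in males, against 0.02 for all genes in morulae and 0.01 in ExE. Without matKO males 4 and 5 the value in the sexes averaged was -0.08. At an unadjusted p under 0.05 (limma), 3 of the 12 were then higher and 1 lower, against 1861 of 9904 genes either way. The 73 listed genes, Bmp4 and Hand1 among them, summed to 170 to 215 RPKM in control ExE and 204 to 368 RPKM in matKO. In males the sums were 170 to 173 and 222 to 368 RPKM, and in females 196 to 215 and 204 to 294 RPKM. Only 12 of the 73 had a mean above 1 RPKM in either genotype, and Bmp4 and Hand1 held a large part of the sums. Median Bmp4 was 100 RPKM in controls and 133 RPKM in the matKO libraries other than males 4 and 5. Median Hand1 was 40.8 and 60.9 RPKM, and males 4 and 5 had Hand1 at 312 and 295 RPKM. The sums thus do not describe the 73 genes as a set. Morula sums were 171 to 226 RPKM in controls and 139 to 190 RPKM in matKO. These sums were not tested. Among PRC2 subunits in ExE, total Eed was at 113 to 148 RPKM in controls and 49.0 to 118 RPKM in matKO, a difference of -0.48 ± 0.18 (SE) log2 units (limma, adjusted p = 0.216), and Ezh2, the methyltransferase subunit, differed by 0.10 ± 0.10 (adjusted p = 0.660).

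Allelic reads show which parental copy the transcripts of a member came from, maternal B6/129 or paternal PWK. With 1 direction of the cross, parent and strain cannot be told apart for a gene's bias. In morulae, maternal reads can also include transcripts left from the oocyte. Of 10 oocyte markers, 5 had a mean above 1 RPKM in control and in matKO morulae. Their summed levels were 43.3 to 86.9 RPKM in controls and 54.4 to 55.7 RPKM in matKO. Such carry-over was not separated from transcription in the embryo. In morulae 25 members had allelic counts and 4 reached a mean of 20 reads. None passed edgeR's quasi-likelihood test of the allelic ratio, which called 2 of 7872 genes (0.0254%). Unadjusted p-values under 0.05 were found for 314 genes (3.99%), Tbx18 among them, and DESeq2 called 14 genes and no member. The intervals given for a library's share are 95% Wilson intervals and cover counting error only.

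Tbx18, a T-box factor of heart and urogenital mesenchyme, was read from the paternal copy alone in control morulae and from both copies in matKO. Its maternal reads were 0 of 3 and 0 of 41 in the control libraries (upper bounds 56.1% and 8.57%). In the matKO libraries they were 6 of 15 (40.0%, interval 19.8% to 64.3%) and 18 of 72 (25%, interval 16.4% to 36.1%). Pooled by genotype, this was 0 of 44 and 24 of 87 reads (27.6%). No interval is given for the pooled reads, since reads of a library are not replicates of a genotype. Since no control read was maternal, no fold is given; edgeR's unadjusted p was 0.00707 and the adjusted p 0.905. Adjusted p ran from 0.0784 to 1.0 over the alternatives run. Total Tbx18 was low, at 0.102 and 0.586 RPKM in controls and 0.333 and 0.703 RPKM in matKO, and the control result rests almost wholly on the 41 reads of replicate 2. Tbx18 was not in the ExE allelic counts used here; in allelic RPKM both alleles were present in all 4 ExE controls, with maternal shares of allelic RPKM of 63.6% to 88.1%, and in the 8 matKO libraries with a value (43.3% to 71.8%).

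Nkx2-9 was maternal in both genotypes. Its maternal reads were 18 of 18 and 74 of 74 in controls and 35 of 36 and 111 of 111 in matKO, so nearly all reads were maternal at either level. Tbx20 was read from both copies, with maternal shares of 69.4% and 60.2% in controls (743 and 736 reads) and 56.2% and 57.1% in matKO (498 and 1049 reads). Both matKO shares were below both control shares, a log2 change of the ratio of -0.50 (edgeR, adjusted p = 1.0). Tbx3 had maternal shares of 45.2% and 51.7% in controls and 38.8% and 39.9% in matKO, a change of -0.55 (adjusted p = 1.0). Wnt8a, under the read minimum, had 19 paternal and 0 maternal reads over the 4 libraries.

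**Figure D5:**
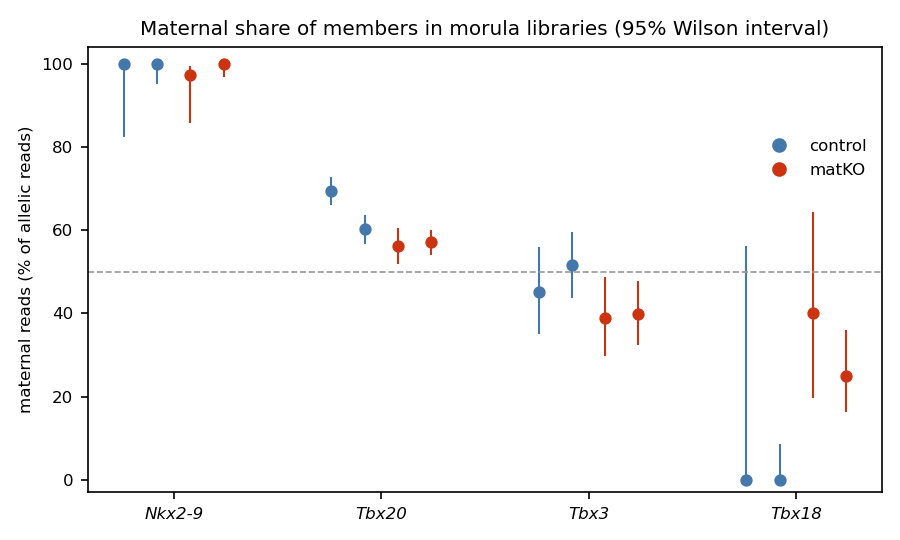
Maternal reads as a percentage of allelic reads for 4 members in each morula library, controls in blue and matKO in red, with 95% Wilson intervals; the dashed line marks 50%. Nkx2-9 lies at 97.2% to 100% in all 4 libraries, and Tbx18 at 0% in both controls and at 40.0% and 25% in matKO.

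In ExE 11 members had allelic counts and 10 were tested. None passed edgeR's test by genotype, which called 9 of 8152 genes (0.110%), and none of the 513 genes (6.29%) with an unadjusted p under 0.05 was a member; DESeq2 called 30 genes and no member. The abundant members were read from both copies in each genotype. The maternal share of allelic RPKM was 46.0% ± 1.90 (SD, n = 4) in control and 48.2% ± 3.41 (SD, n = 9) in matKO for Irx2, and 49.2% ± 1.5 and 48.5% ± 3.9 for Wnt7b. Irx3 leaned to the paternal copy in both genotypes (33.1% ± 2.77 and 27.6% ± 6.68 maternal) and Six2 to the maternal one (66.5% ± 9.02 and 62.0% ± 12.9). The largest tested change was in Tbx20, with 27.8% ± 3.66 maternal in controls and 36.6% ± 12.5 in matKO, a log2 change of the ratio in counts of 0.66 (adjusted p = 0.840). In matKO males 4 and 5, Irx2 was 47.4% and 44.0% maternal, close to the controls, at allelic levels of 262 and 287 RPKM against 102 to 129 RPKM in controls, so its higher level there came from both copies.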

How the data were processed

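RNA was measured in 17 libraries, grouped by the labels; per the labels' protocols, cDNA was made with the SMARTer Ultra Low Input kit and libraries with Nextera XT. The authors deposited RPKM per gene, allelic RPKM and whole allelic read counts per gene over sequence variants, and log2 ratios of changed genes. Per the submitters' processing notes the tools included HISAT2 2.1.0 and Cufflinks 2.2.1 with build mm9; how alleles were assigned is not given in the sources used here. Depth behind RPKM is unknown, and the 2 stages may have been normalized separately. CUT&RUN was not analysed here, and 21 per-sample columns were not used. Coordinates in the deposited tables cover part of each gene.

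Members were taken by symbol; members and lists were chosen with earlier results of these data known. The test of total expression was limma-trend (limma 3.58.1 under R 4.3.3), applied to log2 of RPKM with 1 added, a scale that understates changes of low genes. Genes averaging 1 RPKM or more across a stage's libraries were fitted, and calls needed a Benjamini-Hochberg adjusted p under 0.05. ExE groups were fitted together, and the ExE contrasts share control libraries. Allelic ratios were tested with edgeR 4.0.16 (quasi-likelihood, mean of at least 20 allelic reads) with library as a block. Both were checked on simulated data. Alternatives were pseudocount 0.1, filters of 5 RPKM or none, other scaling, no trend, DESeq2 1.42.0, limma on allelic RPKM, other read minimums, a replicate block, other thresholds and leaving out each library; leaving out matKO males 4 and 5 together was chosen after their markers were seen. Tables and figures were made in Python 3.11.15 (matplotlib 3.10.9, scipy 1.17.1, pandas 2.3.3, numpy 2.4.6).

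Named members were those called, highest in controls, silent in controls and at 0.5 RPKM or above in matKO, lowest in p, covered by allelic reads, or listed by the authors; some members are not reported here. Hoxa10, Hoxd13, Nkx6-3, Wnt5b and the genes outside the families were named after their values were seen. When each allelic column was matched with total RPKM over genes with at least 50 reads per allele, all 4 morula and all 13 ExE allelic RPKM columns matched their own name, but only 3 of 13 ExE count columns did, while all 13 matched their genotype. ExE counts were therefore read by genotype, and values of single ExE libraries came from allelic RPKM.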

Additional observations from a re-analysis of the deposited data

Results flagged for a closer look

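Wnt10a, a secreted ligand, was listed at 0 RPKM in ExE matKO male 5, while the other 4 matKO males ranged from 0.181 to 0.242 RPKM. The value stood apart from the other 4 by 0.746 of the range of the group. It was the only such value among 44 groups of members and libraries examined, and chance alone marks about 1 in 20 groups. A value of 0 in this table can be a failed estimate, and all 5 values lay below the 0.5 RPKM used for silent members.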

How the results depend on the processing

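Counts of members called moved in 2 alternatives: the replicate block in morulae gave 1 higher member (Nkx2-9) with 164 genes in all, and leaving out matKO males 4 and 5 gave 1 (Six2) with 69 genes in the sexes averaged and 8 in males. Equal numbers only share a number in the labels. In morulae, deviations from the group means of same-numbered libraries had r = 0.702. With 2 libraries per group the deviations mirror each other, so both pairs give this same value. ExE values were -0.038 to 0.058, but the matKO groups there held 4 or 5 libraries, so the stages are not directly comparable. The replicate block gave 45 genes in the sexes averaged, 18 in males, 0 in females and 43 in the morula allelic test, with no member. Genes called in ExE (sexes averaged, 5 as reported) numbered 11 with a 5 RPKM filter, 11 without trend, 38 without a filter, 10 with pseudocount 0.1 and 13 after quantile normalization. Without a filter there were 12 in females, 15 in males and 1 in the sex difference. Morula allelic calls were 14 by DESeq2, 0 by limma on allelic RPKM and 4 with 1 read as minimum; ExE allelic calls were 30 by DESeq2. Leaving out each library gave 1 to 16 genes in morulae, 3 to 17 in the sexes averaged, 1 to 3 in females, 1 to 6 in males, 0 to 1 in the sex difference, 0 to 123 in the morula and 5 to 15 in the ExE allelic test, with 0 members each time. The matKO minus control number of members was -1.0 in morulae and -0.97 in ExE at 0.5 RPKM and 0.00 in morulae at 2 RPKM, and 0.5 to 1.5 and 0.22 to 0.62 with a library left out. Silent members reaching 1 RPKM numbered 0 to 2 in morulae and 0 to 1 in ExE with a library left out, and 0 in morulae at 2 RPKM. Pax6 in morulae ran from -2.17 to 0.52 log2 units. Beyond what the settings themselves change (fewer libraries, other gene sets), the cause was not tested.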

Other observations

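Wnt2b, a ligand of eye and limb development named after its values were seen, had allelic reads that followed the replicate number in morulae. They were 0 maternal of 7 in control replicate 1 and 0 of 4 in matKO replicate 1, and 5 of 5 and 7 of 7 in the second replicates. The counts are small, and no test was made.

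Wnt antagonists and agonists outside the families, such as the Dkk, Sfrp and Rspo genes, were too low to be tested in ExE with all libraries. Without matKO males 4 and 5, 1 was tested and did not pass (-0.52 log2 units in the sexes averaged, limma, unadjusted p under 0.05). The 15 listed genes summed to 3.07 to 4.85 RPKM in controls, 1.56 to 2.89 RPKM in the matKO libraries other than males 4 and 5, and down to 0.120 RPKM when those were included, so matKO and control sums did not overlap. Of the 15, 2 had a mean above 1 RPKM in control ExE (1 in control males) and 0 in matKO, so most of these values lay near the floor. This is also only 1 of many lists that were summed. No test was made of these sums.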
